A study of Mus musculus with 4 samples.

Results

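The 4 arrays of a series on mouse embryonic fibroblasts were compared by the number in their titles: control 2 and mTert 2, numbered 2, against control 1 and mTert 1, numbered 1. All 4 of the 4 arrays enter, 2 per number, and each number holds 1 array of each vector. The cells, fibroblasts grown from mouse embryos, were infected with the retrovirus pBabePuro, a vector selected with puromycin. Controls received the empty virus, and mTert samples a virus with mTert, the catalytic subunit of mouse telomerase, driven by the vector and added to the cell's own gene. Strain, embryo age, sex and passage are not given in the sources used here. Nor do the labels say what the number marks or whether separate cultures lie behind the arrays. The p-values below therefore measure no more than the spread among these 4 arrays, which may be technical. Tert was called absent on both control arrays and present on both mTert arrays, so the vector labels held within each number: its signals were 128 and 1165 on control 1 and mTert 1, and 84.7 and 845 on control 2 and mTert 2.

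Primary embryonic fibroblasts are grown from minced embryos, and early cultures can carry other cells, among them macrophages, which live in most embryonic tissues. Macrophages take up particles through scavenger and Fc receptors, make the first component of complement and release chemokines. Fibroblasts lay down matrix, and on a stiff surface they build contractile fibres under the transcription factor SRF and the transcriptional co-activator YAP. Type I interferons, which many cells release on sensing foreign nucleic acid, switch on a set of antiviral genes in fibroblasts and macrophages alike.

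A probe set was tested if it was called present on at least 2 of the 4 arrays, and it was called higher or lower on arrays numbered 2 if its limma adjusted p was under 0.05 in a fit with the vector as a block. Signals are in scaled arbitrary units and are given as control 1, then mTert 1, for the arrays numbered 1, and as control 2, then mTert 2, for those numbered 2. Differences are arrays numbered 2 minus 1 in log2 units, and SE is their standard error in limma. The arrays had between 51.6% and 54.4% of probe sets called present. The amount of cRNA hybridised was 5 µg for control 1 and 15 µg for the other arrays, and every array had its own wash module and scan, so module and scan cannot be told apart from the array. Arrays of 1 number were the most alike. The correlation of log2 signals across the tested probe sets, which are not independent replicates, was 0.984 within each number (control against mTert), but 0.971 for each pair of arrays with the same vector.

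Of 12396 probe sets, 217 were higher and 136 lower on arrays numbered 2 (2.85% called, 1.75% higher and 1.1% lower). The same limma fit called 18 probe sets between the vectors (0.145%). At an unadjusted p under 0.05 it gave 1269 probe sets for the number and 496 for the vector. The called probe sets with a single symbol stood for 158 genes higher and 103 lower, and no gene was called in both directions. Higher calls were larger: 110 of them differed by at least 2-fold, against 28 of the lower ones, and the median difference was 1.01 among the higher and -0.75 among the lower calls. For 54 higher and 8 lower probe sets both arrays of the dimmer number were called absent. In both vectors the difference had the same sign for all 353. The calling favours this, since a gap between the vectors counts as spread in the fit. Signals of the 353 also did not overlap between the numbers. That alone is common, since 20.3% of all tested probe sets were higher without overlap and 19.5% lower.

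**Figure D1:**
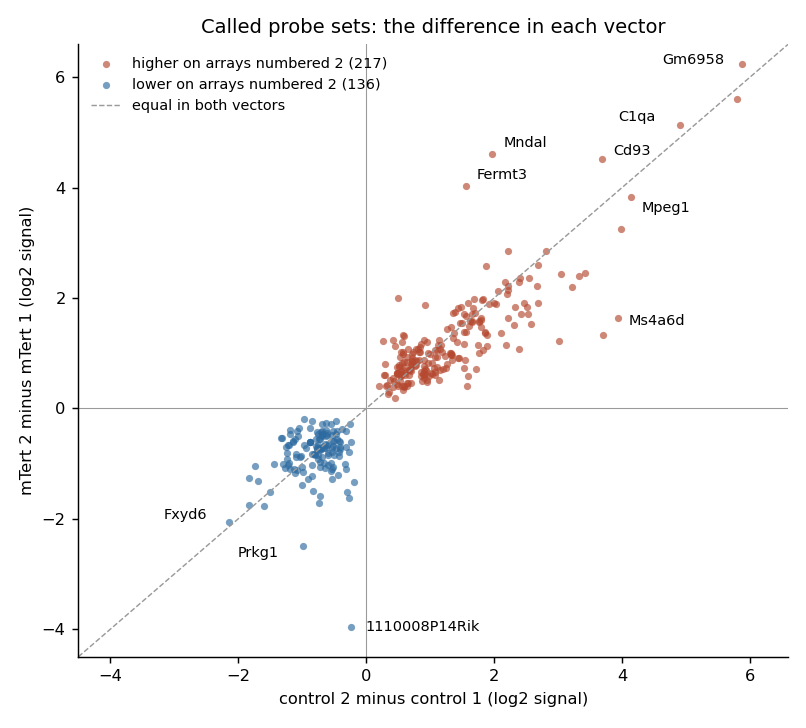
Difference between numbers for the 353 called probe sets, in the control arrays (x axis, log2 signal) and in the mTert arrays (y axis, log2 signal); each point is 1 probe set and the dashed line marks equal differences. The 217 higher and 136 lower probe sets lie on opposite sides of 0 in both vectors, most of them near the line, and 1110008P14Rik lies far from it. The calling favours points near the line, since a gap between the vectors counts as spread in the fit.

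The number of calls depended on how the spread was estimated, more for the lower than for the higher genes. With 1 residual degree of freedom per probe set, the fit borrowed the spread from probe sets of like brightness. Without that intensity trend limma called 71 probe sets higher and 5 lower. Fits that left out 1 array had no vector term and set a lone array against a pair. Leaving out control 1, control 2, mTert 1 or mTert 2 gave 151, 61, 148 and 62 higher and 54, 30, 58 and 18 lower probe sets. The first of these holds only arrays with 15 µg of cRNA, and in it 1.65% of probe sets were called. No called probe set changed sign in any of these fits. That outcome was fixed, since signals that do not overlap between the numbers keep their order with 1 array left out.

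Genes of macrophages were called higher on arrays numbered 2, among them 9 of the 15 named genes with the largest higher difference. Of the 65 macrophage and myeloid marker genes on the array, 37 were measured, and 29 of these were called, all higher, where 1.94% of all 7387 measured genes were called higher and 1.18% lower. The median difference of the 37 was 1.67, against 0.01 over all measured genes. Their summed signal, over all 65, was 14889 and 17484 on the arrays numbered 1, and 40297 and 41812 on those numbered 2. The list passed the presence filter in part because of the arrays numbered 2, where 39 and 40 of the 65 genes were present, against 23 and 21. Of the 21 present on all 4 arrays, 14 were called, all higher, with a median of 1.55. The list was also chosen with earlier results of these data known. In RNA of whole cultures, fewer cells of a type and less RNA per cell cannot be told apart.

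Complement C1q, whose 3 chains are made by macrophages, stood out. C1qa had signals of 39.8 and 39.8 against 1189 and 1395. It was called absent on both arrays numbered 1, so it was at least 32.3-fold higher, with a difference of 5.01 (SE 0.22, limma adjusted p = 2.3e-10). C1qb had 222 and 296 against 1421 and 1383. C1qc, called absent on both arrays numbered 1, had 178 and 310.1 against 1143 and 1169.7. All 3 chains were low in both arrays numbered 1 and high in both numbered 2. Among genes of uptake and digestion, Mrc1, the mannose receptor, had 109 and 152 against 1093 and 805. Lyz1, a lysozyme, had 512 and 570.3 against 3595 and 4126, a 7.13-fold difference of 2.83 (SE 0.13, limma adjusted p = 2.3e-10). Lyz2, its near-identical neighbour, had 736 and 874 against 3432 and 4058, and the probe sets of the pair may share signal. Ctss, the lysosomal protease cathepsin S, had 302 and 337 against 1947 and 2046. Mpeg1, a pore-forming protein of phagocytes called absent on both arrays numbered 1, had 36.5 and 47.7 against 642 and 677. None of these overlapped between the numbers.

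The receptors and signalling genes of these cells showed the same order. Fcer1g, the common chain of Fc receptors, had 48.4 and 64.3 against 762 and 609, and Tyrobp, an adaptor of activating receptors, had 197 and 219 against 1035 and 1065. Both were called absent on the arrays numbered 1. Csf1r, the receptor on which most macrophages depend, had 671 and 691 against 2191 and 2293, a difference of 1.72 (SE 0.13, limma adjusted p = 2.3e-07). The arrays numbered 1 were thus not without it: Csf1r, Adgre1, Cd68 and Ptprc, defining genes of macrophages or of all leukocytes, were present on all 4 arrays. Adgre1, known as F4/80, had 409.9 and 351 against 1057 and 902. Ptprc, the leukocyte antigen CD45, had 99.3 and 87.3 against 320.3 and 343. Cd93, a receptor of myeloid and endothelial cells, was at least 15.2-fold higher, with 23.8 and 13.0 against 307 and 298, and Fermt3, an integrin activator of blood cells, at least 5.78-fold, with 43.9 and 39.3 against 204 and 282. Fcrls, a receptor-like gene of the same family as Fc receptors, had 185 and 254 against 1079 and 1308.

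Some genes of the list did not pass. Spi1, the transcription factor PU.1, had 142 and 154 against 266 and 246, a difference of 0.79 (SE 0.23, limma adjusted p = 0.088) that missed the threshold. Arhgdib, at -0.10 (SE 0.12), overlapped between the numbers. Among the 28 members left out by the filter, 21 were absent on all arrays, including Itgax, Marco and Mmp12. Without control 1, control 2, mTert 1 or mTert 2 limma called 27, 20, 29 and 21 of the list higher, and without the intensity trend 24.

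**Figure D2:**
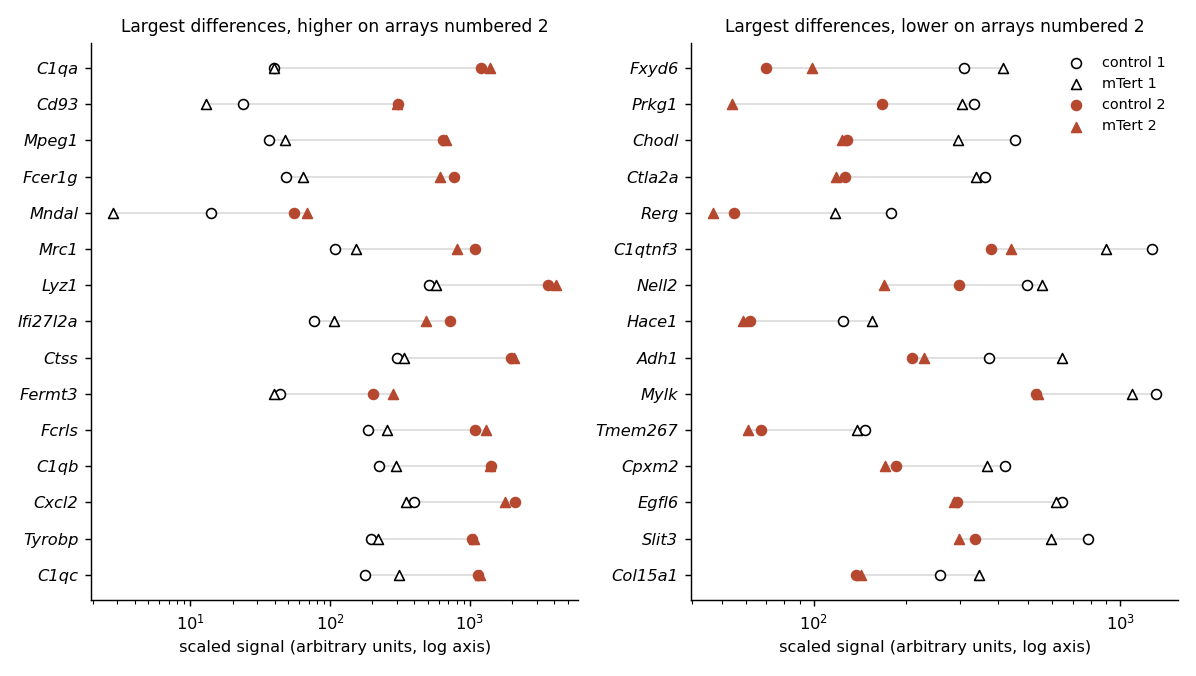
Scaled signal (log axis) on each of the 4 arrays for the 15 genes with the largest called difference in each direction, leaving out clone and predicted gene names; open symbols are arrays numbered 1, filled symbols arrays numbered 2, circles control and triangles mTert. C1qa goes from 39.8 on both arrays numbered 1 to 1189 and 1395 on those numbered 2, and filled and open symbols do not overlap for any gene shown.

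In most lists of other cell types, most markers were absent. None of 11 erythroid genes was measured, and 18 of 19 genes of mast cells and granulocytes, 15 of 21 of T, B and NK cells, 14 of 18 of endothelium and 20 of 25 of skeletal muscle were absent on all arrays. In these lists only Thy1 was called, and it is a fibroblast gene as well. Of neural genes 13 of 23, of epithelial genes 11 of 19 and of fat cell genes 8 of 14 were absent on all arrays. In the list of cartilage and bone 10 of 23 were absent. The fat cell list had 1 call among 6 measured genes, higher, and the cartilage and bone list 1 higher and 1 lower among 10. Over all measured genes 1.94% were called higher and 1.18% lower. Sex-linked genes gave no call. Xist, the RNA that coats the inactive X chromosome, was present on every array, with 1098 and 1014 against 1119.9 and 1141 for 1 probe set and 2202 and 2666 against 2600.4 and 2971 for another. Of the Y-linked genes, Eif2s3y, Kdm5d, Sry and Usp9y were absent on all arrays. A probe set of Uty was present on control 2 alone and marginal on both mTert arrays, with signals of 23.4 and 104 against 56.3 and 46.9, which overlap between the numbers.

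Interferon-responsive genes formed the next group. Of 44 on the array 27 were measured, and 10 of these were called, all higher, against 1.94% of all measured genes. The median difference was 0.63, and 25 of the 27 were positive. Some members passed the presence filter only through the arrays numbered 2, where 26 and 27 were present, against 20 and 19. Of the 20 present on all 4 arrays, 7 were called, with a median of 0.58. The summed signal of the macrophage list moved the same way over the same arrays, and its part in this difference was not tested. Ifit1, which binds foreign RNA, had 287 and 307 against 879 and 915, a difference of 1.60 (SE 0.17, limma adjusted p = 1.1e-05). Usp18, which removes the ubiquitin-like ISG15 from proteins and damps the receptor, had 188 and 219 against 654 and 610.2. Oasl2, of the oligoadenylate synthetase family, had 140.1 and 146 against 484 and 445, and Iigp1, a GTPase active against intracellular parasites, had 245 and 332 against 610.1 and 647. These 4 had the smallest p of the list, and none of them overlapped between the numbers. Ifit3, Lgals3bp, Trim30a, Igtp, Trim25 and Bst2 were the other calls, between 0.68 and 1.21. Outside the list, Ifi27l2a, an interferon-induced gene called absent on both arrays numbered 1, had 77.1 and 106 against 718 and 486. Mndal, of an interferon-induced DNA-binding family, was dim, with 14.1 and 2.8 against 55.3 and 68.0, and at least 3.83-fold higher. Rtp4, another gene induced by interferon, had 444 and 415 against 1252 and 1219 and was chosen here after its values were seen. Irf9, a subunit of the factor that carries the interferon signal to DNA, had 371 and 417 against 583 and 637, a difference of 0.63 (SE 0.17, limma adjusted p = 0.059). Ifitm3, which blocks virus entry, differed by 0.19 (SE 0.08), and Mx1, an antiviral GTPase called absent on both arrays numbered 1, had 40.2 and 35.9 against 86.4 and 102, with a limma adjusted p of 0.075. Leaving out control 1, control 2, mTert 1 or mTert 2 left 7, 5, 8 and 3 calls in the list, and leaving out the intensity trend 3.

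The promoters of Ifit1, Ifit3 and Igtp, 3 of the called interferon-responsive genes, are printed from RefSeq's promoter table of build GRCm38.p6 to show the stretch just before their starts. Each is the 250 bases before the start of transcription, in the direction of transcription and in lower case, with the last base just before the start. The windows are chr19:34640639-34640888 (plus strand) for Ifit1, chr19:34583279-34583528 (plus strand) for Ifit3 and chr11:58199306-58199555 (plus strand) for Igtp.
Ifit1: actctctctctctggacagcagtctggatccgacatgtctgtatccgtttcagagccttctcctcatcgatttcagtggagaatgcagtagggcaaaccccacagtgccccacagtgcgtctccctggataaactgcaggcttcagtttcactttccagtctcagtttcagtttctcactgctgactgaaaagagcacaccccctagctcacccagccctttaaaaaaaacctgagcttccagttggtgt
Ifit3: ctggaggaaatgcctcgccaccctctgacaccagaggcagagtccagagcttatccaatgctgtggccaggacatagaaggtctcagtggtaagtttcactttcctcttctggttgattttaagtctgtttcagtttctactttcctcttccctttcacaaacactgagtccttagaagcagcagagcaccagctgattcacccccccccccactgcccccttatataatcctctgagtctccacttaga
Igtp: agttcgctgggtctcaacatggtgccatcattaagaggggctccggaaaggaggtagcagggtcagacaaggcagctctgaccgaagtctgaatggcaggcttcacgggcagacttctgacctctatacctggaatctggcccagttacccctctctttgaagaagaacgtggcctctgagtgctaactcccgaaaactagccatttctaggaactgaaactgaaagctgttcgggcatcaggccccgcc

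Chemokines and inflammatory cytokines moved in both directions. Of 20 measured genes 7 were higher and 2 lower, with a median of 0.23, so that 9 of 20 were called, against 3.11% of all genes in either direction. Cxcl2, which draws neutrophils, led with 396 and 348 against 2106 and 1786, a difference of 2.38 (SE 0.15, limma adjusted p = 1.6e-08). Its neighbour Cxcl1, which acts on the same receptor, differed less, with 699 and 594 against 1001 and 1024, a difference of 0.65 (SE 0.15, limma adjusted p = 0.024). Ccl2, which draws monocytes, had 337 and 249 against 500.1 and 503, and Ccl4, called absent on both arrays numbered 1, had 403 and 402 against 781 and 571. Cxcl16, a ligand that also acts as a scavenger receptor, had 151 and 235 against 307 and 412. Csf1, the growth factor read by Csf1r, had 1284 and 1348 against 2020.2 and 1849, a difference of 0.56 (SE 0.12, limma adjusted p = 0.019). Nfkbia, an inhibitor of NF-kappaB that NF-kappaB itself induces, had 6553 and 5227 against 7936 and 7965. The 2 lower genes were chemokines too: Cxcl14 had 902 and 1197 against 668 and 521, a difference of -0.82 (SE 0.18, limma adjusted p = 0.014), and Cx3cl1, the ligand of Cx3cr1, had 632 and 699.5 against 416 and 402. The receptor Cx3cr1 was higher, with 211 and 157 against 588 and 559, so ligand and receptor stood in opposite order. Ptgs2, the inducible cyclooxygenase, had 1081 and 685 against 704 and 601, and Cxcl12, a chemokine that many fibroblasts make, had 8351 and 8868 against 9378 and 9168. Neither was called. Without control 1, control 2, mTert 1 or mTert 2 limma called 4, 1, 2 and 1 of the list higher and 1, 0, 0 and 0 lower, and without the intensity trend 1 higher, which was Cxcl2, and none lower.

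The promoters of Cxcl1, Cxcl2 and Csf1 are shown in the same way, because these genes passed the test in the list of chemokines and inflammatory cytokines. The windows are chr5:90890995-90891244 (plus strand) for Cxcl1, chr5:90903649-90903898 (plus strand) for Cxcl2 and chr3:107760470-107760719 (minus strand) for Csf1.
Cxcl1: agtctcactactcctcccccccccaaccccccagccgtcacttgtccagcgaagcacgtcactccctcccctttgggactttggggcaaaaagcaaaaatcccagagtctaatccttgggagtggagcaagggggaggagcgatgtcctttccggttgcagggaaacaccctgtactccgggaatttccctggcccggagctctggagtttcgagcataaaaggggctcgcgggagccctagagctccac
Cxcl2: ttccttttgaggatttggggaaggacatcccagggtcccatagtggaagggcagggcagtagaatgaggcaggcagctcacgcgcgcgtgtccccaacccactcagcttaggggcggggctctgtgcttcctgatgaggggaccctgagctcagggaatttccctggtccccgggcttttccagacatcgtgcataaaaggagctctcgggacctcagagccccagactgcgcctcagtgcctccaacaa
Csf1: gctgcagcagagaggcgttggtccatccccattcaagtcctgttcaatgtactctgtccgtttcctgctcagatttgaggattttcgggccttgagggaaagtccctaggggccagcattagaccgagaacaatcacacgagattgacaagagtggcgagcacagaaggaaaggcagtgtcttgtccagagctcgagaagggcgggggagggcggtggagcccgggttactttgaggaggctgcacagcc

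Of 9 measured genes of MHC and antigen presentation, 2 were higher, against 1.94% of all measured genes. H2-K1, a class I heavy chain, had 1375 and 1618 against 2479 and 2563, a difference of 0.76 (SE 0.12, limma adjusted p = 0.00082), and H2-D1, another and a near copy in sequence, had 2168 and 2206 against 3199 and 3875. B2m, their light chain, had 10952 and 9792 against 10695 and 11508, which overlapped between the numbers. Both calls were also made without control 1 and without mTert 1, while 1 was left without control 2 and 0 without mTert 2 or without the intensity trend.

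The largest difference of any probe set belonged to Gm6958, a predicted gene outside the rule for named genes. Its 2 probe sets had signals of 4.5 and 4.9 against 264 and 370, and of 3.3 and 2.8 against 183 and 137. Both were absent on the arrays numbered 1, which makes the brighter at least 19.5-fold higher.

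Of the 158 higher genes 30, counted over any probe set of the gene, were in the macrophage list and 128 were not, and 90 were in no list at all. The lists do not hold every gene of macrophages and other leukocytes: Cd93, Fermt3 and Fcrls, given above, are in no list. Genes given in the rest of this paragraph without being in a list were chosen after their values were seen. Penk, the precursor of the enkephalin peptides, had 3093 and 3382 against 8266 and 7747, a difference of 1.31 (SE 0.09, limma adjusted p = 6.4e-08). Lbp, which binds bacterial lipopolysaccharide, had 117 and 93.8 against 535 and 395 and was absent on both arrays numbered 1, while Pcolce2, an enhancer of procollagen cleavage, had 181 and 165 against 686 and 610.4. Comp, a matrix protein of cartilage and tendon, had 587 and 568 against 1296 and 1345, and Lpl, the enzyme that frees fatty acids from lipoproteins, had 845 and 809 against 1811 and 1694. Lpl is made by fat cells and by macrophages, and the other 5 measured genes of the fat cell list were not called. Of 27 measured Wnt genes 3 were called, all higher, against 1.94% of all measured genes. Dkk2, a Wnt modulator, had 771 and 651 against 1679.8 and 1443, Fzd4, a receptor, had 605 and 613 against 999 and 1252, and Sfrp2, a secreted Wnt-binding protein, had 6182 and 6010.2 against 8469 and 6851. The median of the 27 was -0.02. The Wnt calls were 2, 1, 2 and 1 without control 1, control 2, mTert 1 or mTert 2, and without the intensity trend 0. Kitl, the ligand of Kit, had 518 and 552 against 980.5 and 847, and Clu, the chaperone clusterin, had 547 and 589 against 929.5 and 1004. Of 35 lysosomal genes 2 were higher, against 1.94% of all measured genes. Lgmn, the protease legumain, had 1649 and 1636 against 2822 and 2818, and Ctsb, cathepsin B, had 6365 and 6391 against 7991 and 8528. With any 1 array left out 1 of these was called, and without the trend 0. Adam8, a metalloprotease of leukocytes, had 213 and 239.7 against 668 and 786 and was absent on both arrays numbered 1.

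On the lower side most genes were still detected on arrays numbered 2. Fxyd6, a regulator of the sodium pump, had 308 and 414 against 69.6 and 98.8, a difference of -2.11 (SE 0.24, limma adjusted p = 2.7e-05). Prkg1, a cGMP-dependent protein kinase, was absent on both arrays numbered 2, with 333 and 305 against 167 and 54.1, and at least 3.35-fold lower on means of log2 signals. The difference was uneven, at -0.995 in the control and -2.49 in the mTert arrays. Chodl, a membrane lectin, had 455 and 295 against 128 and 124, and C1qtnf3, a secreted protein with a domain like that of C1q, had 1266 and 901 against 378 and 439.7. Ctla2a, an inhibitor of cysteine proteases, had 361 and 338 against 127 and 118, a difference of -1.51 (SE 0.22, limma adjusted p = 0.00048). Its near copy and neighbour Ctla2b went the other way, with 49.3 and 70.2 against 172 and 218, although probe sets of such copies may share signal. Among secreted and matrix genes, Slit3, a ligand of Robo receptors, had 782 and 593 against 337 and 298, Egfl6 had 643 and 616 against 293 and 287, and Nell2 had 496 and 557 against 297 and 169.9. Col15a1, a collagen of the basement membrane zone, was absent on both arrays numbered 2, with 258 and 345 against 137 and 142, and at least 2.14-fold lower. Adh1, an alcohol dehydrogenase that also handles retinol, had 374 and 644 against 209.6 and 229. The remaining 5 of the 15 largest were Rerg, Hace1, Mylk, Tmem267 and Cpxm2, between -1.51 and -1.15. Of the 15 largest lower genes limma called 10, 6, 9 and 4 without control 1, control 2, mTert 1 or mTert 2, and 3 without the intensity trend. Of the 15 largest higher genes it called 15, 14, 14 and 13 in the same order, and 14 without the trend.

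Contractile and cytoskeletal targets of SRF were among the lower genes. Of 28 measured genes 8 were called, all lower, against 1.18% of all measured genes. Of the 28, 25 were negative, and the median was -0.21. Mylk, the kinase that starts smooth muscle contraction, had 1311 and 1092 against 531 and 540.0, a difference of -1.16 (SE 0.15, limma adjusted p = 0.00015). Fhl2, a LIM protein, had 1523 and 1317 against 713 and 739.5, a difference of -0.96 (SE 0.14, limma adjusted p = 0.00052), and Tagln, an actin-binding protein known as SM22, had 6434 and 5655 against 3993 and 4243. Actg2, smooth muscle gamma actin, had 1197 and 1119 against 706 and 670.5. Myl9, Csrp1 and Cnn1 fell by 0.45, 0.47 and 0.82 on the log2 scale. Acta2, the smooth muscle actin of myofibroblasts, had the smallest called difference, with 10589 and 11259 against 8917 and 9266, a difference of -0.27 (SE 0.07, limma adjusted p = 0.045). Flna, Vcl and Actn1, parts of stress fibres and adhesions, had differences of -0.32, -0.20 and -0.13 that were not called. The calls were 4, 1, 5 and 2 when control 1, control 2, mTert 1 or mTert 2 was left out, and 0 without the intensity trend. The macrophage list's summed signal was higher on the same arrays, and its part was not tested here or for the lower groups that follow.

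Of 16 matricellular genes and YAP targets 6 were called, all lower, against 1.18% of all measured genes. The median of the 16 was -0.32. Tnc, the matrix protein tenascin C, had 5434 and 5434 against 2324 and 3442, a difference of -0.94 (SE 0.12, limma adjusted p = 6.5e-05). Ccn2, also called CTGF, had 5664 and 5110.2 against 3645 and 3594, Ccn3 had 3765 and 3163 against 2266 and 2165, and Ccn4 had 3479 and 3132 against 2138 and 1880.2. These 3 are related secreted proteins that bind integrins and matrix. Thbs2, a thrombospondin, had 5453 and 6227 against 4050.5 and 3621, and Thbs1 had 8739.7 and 8365 against 6276 and 7121. Ccn1, of the same family and a common readout of YAP, had 6031 and 5485 against 6832 and 5166, a difference of 0.05 (SE 0.09). Ankrd1, another such readout, was dim, with 116 and 134 against 97.6 and 45.2, and a limma adjusted p of 0.28. Ccn1 overlapped between the numbers. Leaving out control 1, control 2, mTert 1 or mTert 2 gave 4, 2, 5 and 1 calls, and leaving out the trend 0.

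Genes that mark fibroblasts were measured on every array, all 20 of 20. Of these, 4 were lower and 1 higher, against 1.18% and 1.94% of all measured genes, and the median of the 20 was -0.14. Thy1, a surface antigen, had 3319 and 3212 against 1917 and 2180.1, a difference of -0.68 (SE 0.11, limma adjusted p = 0.0012). Fap, a surface protease, had 801 and 601 against 394 and 331, Twist2, a transcription factor, 1181 and 1069 against 564 and 760.0, and Dcn, the proteoglycan decorin, 3818 and 3709 against 3064 and 2281. S100a4, which macrophages also make, was the higher one, with 3789 and 3715 against 4705 and 4892, and was not called when any 1 array was left out or without the trend. Other markers were not called: Col1a1 differed by 0.09 (SE 0.06), Col3a1 by -0.07 (SE 0.06) and Vim, vimentin, by -0.04 (SE 0.06). The summed signal of the 20 was 134487 and 131439 on the arrays numbered 1, and 128520 and 126479 on those numbered 2. Without control 1, control 2, mTert 1 or mTert 2 the lower calls were 1, 1, 2 and 2, and without the trend 0.

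Other parts of the matrix and its signals gave 1 to 3 calls per list, and those given here were lower. Over all measured genes 1.18% were called lower. Col4a1, of basement membranes, fell with Col15a1 among 27 collagens, and Prelp with Dcn among 39 genes of elastic fibres and proteoglycans. Among 26 integrins and adhesion genes, Itga8, which pairs with beta 1 integrin, had 727 and 486 against 306 and 298, and Ncam1, absent on both arrays numbered 2, had 845 and 723 against 422 and 345. Of 37 TGF-beta and BMP genes 3 were lower. Tgfb3, a ligand, had 5540.1 and 5871 against 4115 and 3909.9, Gdf10, a ligand of the BMP family, had 1484 and 1384 against 1039 and 659, and Id4, a target of BMP, had 1212 and 1077 against 801 and 528. Spry1, an inhibitor of receptor tyrosine kinases, had 1857 and 1622 against 1051 and 920.2, and Pdgfc, a ligand of PDGF receptors, 2147 and 1996 against 1164 and 1314. Igfbp2, which binds insulin-like growth factors, had 5911 and 5006 against 3574 and 3399, a difference of -0.64 (SE 0.09, limma adjusted p = 0.00036). Without mTert 2 none of the collagen, elastic fibre, integrin, TGF-beta or IGF lists had a call in limma, and without the intensity trend none of them did either.

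Some genes of cholesterol synthesis were lower by small steps. Of 16 measured genes 4 were called, all lower, against 1.18% of all measured genes. Of the 16, 15 were negative, and the median was -0.35. Cyp51, a demethylase of the pathway, had 1102 and 1071 against 699.5 and 649, and Fdps, farnesyl diphosphate synthase, 1869.7 and 2179 against 1351 and 1324. Sqle, squalene epoxidase, had 1958 and 1972 against 1478 and 1297, and Hmgcs1, which starts the branch, had 3341 and 2894 against 2288 and 2369, a difference of -0.42 (SE 0.11, limma adjusted p = 0.048). Srebf2, the factor that drives the pathway, had 1258 and 1379.9 against 1088 and 981, a difference of -0.35 (SE 0.14, limma adjusted p = 0.31). Fits that lacked control 1, control 2, mTert 1 or mTert 2 gave 1, 0, 1 and 0 calls, and without the intensity trend 0. Of 15 genes of fatty acid synthesis and desaturation limma called 0, with 4 at an unadjusted p under 0.05, all 4 negative.

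Of 18 imprinted genes, which are expressed from 1 parental copy in at least some tissues, 4 were called, all lower, against 1.18% of all measured genes. Peg3, a zinc finger protein, had 2442 and 2382 against 1422 and 1488, a difference of -0.73 (SE 0.12, limma adjusted p = 0.0011). Dlk1, a surface protein related to Notch ligands, had 4477 and 5578 against 3625 and 1963, so that mTert 2 lay well below control 2. Cdkn1c, the cell cycle inhibitor p57, had 1986 and 1887 against 1477 and 1035. Dcn, counted above among fibroblast and proteoglycan genes too, was the fourth. Igf2, a growth factor, and Mest had differences of 0.24 and 0.10 with no call, and the list's median was -0.04. Without control 1, control 2, mTert 1 or mTert 2 the calls were 1, 3, 1 and 1, and without the trend 0. Cdkn2b, the inhibitor p15, was lower as well, with 863 and 947 against 537 and 673. Of 26 measured genes of CDK inhibitors and p53 targets 2 were called, both lower, against 1.18% of all measured genes. In that list 21 of 26 were negative, with a median of -0.19, against 0.01 over all measured genes. Cdkn2b too was not called with any 1 array left out, without the trend or without the vector term. Of position genes, Hoxc8, which marks the trunk, had 404 and 388 against 244 and 186, a difference of -0.90 (SE 0.20, limma adjusted p = 0.02), and was the only call among 11 measured Hox genes. Irx3, a patterning factor, had 1032 and 958 against 679 and 610.4. Neither was called when any 1 array was left out, or without the trend.

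**Figure D3:**
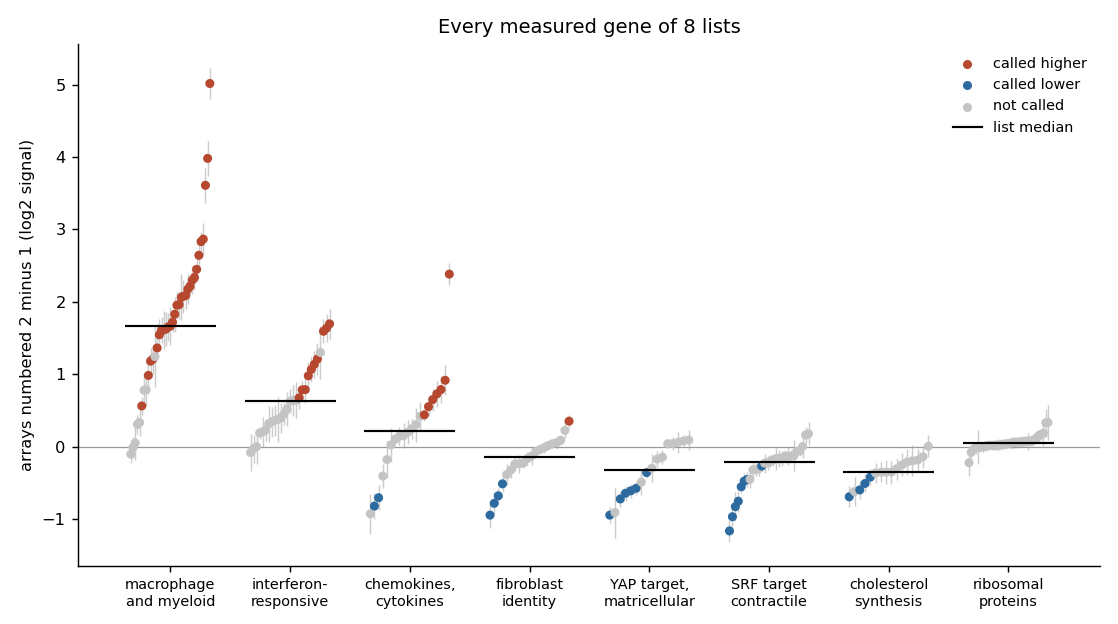
Difference between numbers (log2 signal, y axis) for every measured gene of 8 lists (x axis), 1 point per gene with its SE as a bar and the list's median as a black line. The macrophage genes reach 5.01 with a median of 1.67, the 4 lists from fibroblast identity to cholesterol synthesis have medians between -0.35 and -0.14, and no ribosomal protein gene is called.

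The basic programmes of growing cells gave no calls. None of 51 genes of oxidative phosphorylation, 36 cytosolic ribosomal proteins, 30 genes of ribosome biogenesis, 21 heat shock genes, 26 of glycolysis and hypoxia, 31 of the unfolded protein and integrated stress responses, 36 of DNA replication and 44 of mitosis passed in limma, and between 0 and 3 genes of each list had an unadjusted p under 0.05. The medians of these lists lay between -0.04 and 0.05. The mitosis list had 30 of 44 genes negative, with a median of -0.13 within the control arrays and 0.06 within the mTert arrays, so the vectors differed in sign. Among immediate-early genes, which answer stimulation within minutes, Dusp2, a phosphatase of MAP kinases, was higher, with 311 and 304 against 589 and 498. These genes had 1 call of 27, where 1.94% of all measured genes were called higher. Their median was -0.10, and Dusp2 was not called when any 1 array was left out. The circadian list had 1 call of 13, higher, against the same 1.94%. This was Tef, a clock output factor, with 1528 and 1292 against 2054 and 1889. It was not called without control 2, mTert 1 or mTert 2, or without the trend.

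**Figure D4:**
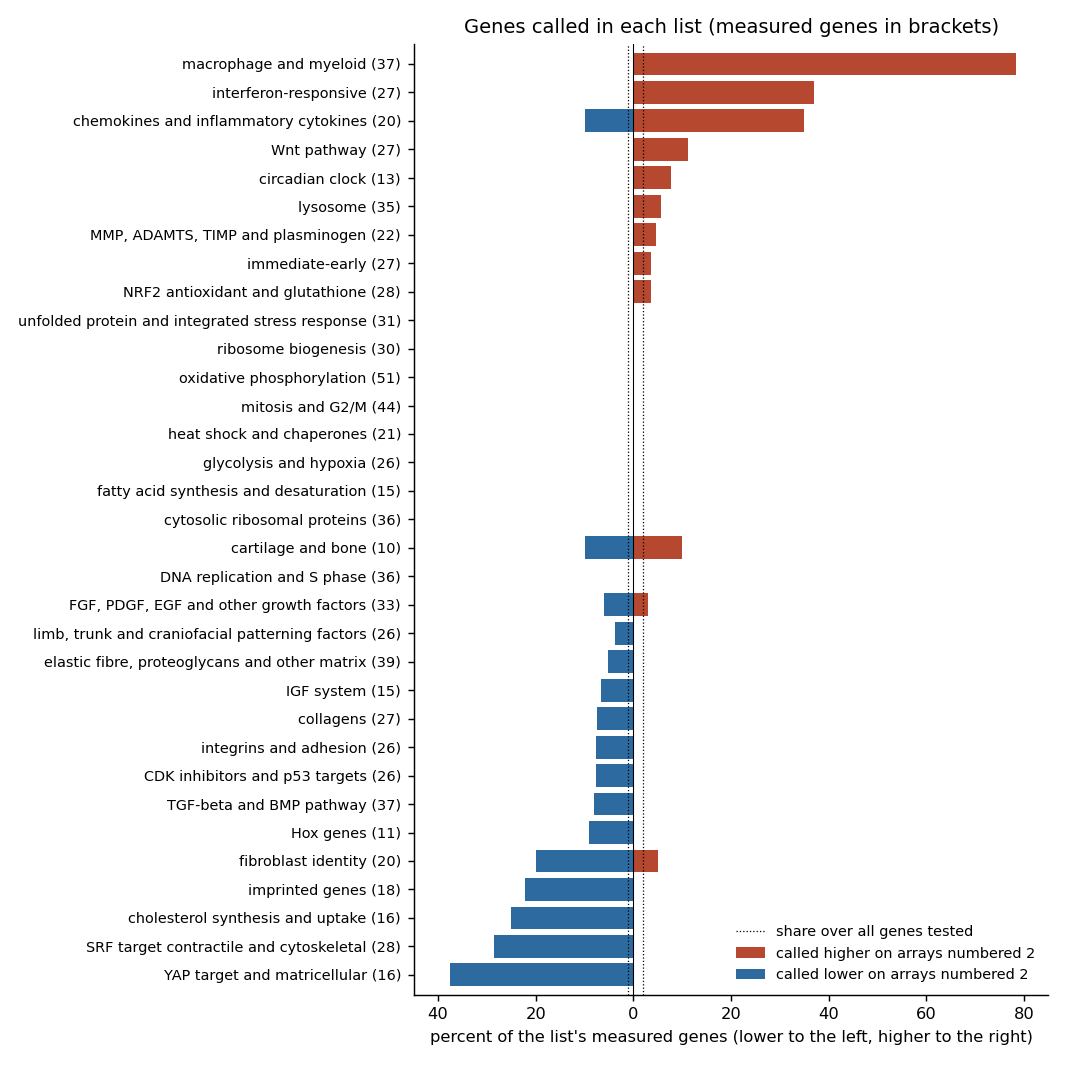
Percent of each list's measured genes called higher (right) or lower (left) on arrays numbered 2, for lists with at least 10 measured genes, whose number is in brackets; dotted lines mark the shares over all genes, 1.94% higher and 1.18% lower. The macrophage list has 29 of 37 genes called higher, and 9 lists have no bar in either direction.

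For 16 called probe sets the differences in the 2 vectors were more than 1 apart on the log2 scale. The most uneven was a probe set of 1110008P14Rik with 268 and 3003 on the arrays numbered 1 against 228 and 193. mTert 1 alone stood high, and neither of the other 2 tested probe sets of the gene lay on the same side. A probe set of Mapre2, a microtubule-binding protein, was alike, with 636 and 1478 against 529 and 478. A probe set of Eln, elastin, had 2892 and 2726 against 2536 and 1087, where mTert 2 alone stood low. Of the 164 called probe sets with other tested probe sets of their gene, all others lay on the same side for 144.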

How the data were processed

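RNA of 4 samples was hybridised to Affymetrix MOE430A arrays, 1 per sample; with 4 arrays, their number limits the precision. Per the file headers, the authors deposited for each probe set an intensity on a linear scale, a present, marginal or absent call and a detection p-value. The sources used here do not name the software behind them. Groups and numbers were taken from the titles. The series table held the same intensities (largest difference 0). The 64 control probe sets were left out. Each array was scaled to a common mean after trimming 2% at each end, a single signal of 0 was raised to the lowest present one, and values were taken to log2. The 12396 probe sets present on at least 2 arrays were tested with limma 3.58.1 in R 4.3.3 (lmFit on vector and number, eBayes with trend, 16.18 prior degrees of freedom), with Benjamini-Hochberg adjustment over all of them at 0.05. The step was run on simulated arrays with known changes, independent errors and no vector effect. Such data cannot show how effects of single arrays would alter the calls.

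The vector is the pairing term: each number occurs once in each vector, so the difference is that within control and within mTert, averaged. Symbols came from GEO's platform annotation, with 1 symbol for 20380 probe sets, several for 691 and none for 1555. Lists were described on 1 probe set per gene, the most intense on average, for 7387 genes. A fold is given as "at least" where both arrays of the lower number were absent, with the higher of the signal and the lowest present signal of each as the base, on means of log2 signals. The genes named are the 15 with the largest called difference in each direction, leaving out clone and predicted gene names, and 4 members of each of 46 lists by smallest p, with others chosen after their values were seen. Members and lists were chosen with earlier results of these data known. Alternatives were no vector term, other scalings, filters and variance settings, an added 50 before log2, and leaving out each array. A motif search in promoters, run in a first version with motifs not taken from a reference, was removed and its results are not given. Promoters of interferon-responsive genes were added to those of the chemokine list. Promoters are RefSeq's, build GRCm38.p6, read with Python 3.11.15.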

Additional observations from a re-analysis of the deposited data

Results flagged for a closer look

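Some named genes had differences of opposite sign in the 2 vectors. With 1 array per vector and number, this difference between vectors was not tested. Arrays numbered 2 minus 1, on the log2 scale, were as follows among markers of other cell types. Prf1 differed by 0.28 in the control and -0.45 in the mTert arrays, Ngp by 0.19 in the control and -0.82 in the mTert arrays, Perp by 0.67 in the control and -0.041 in the mTert arrays and Des by 0.17 in the control and -0.41 in the mTert arrays. Tnnc1 differed by 0.30 in the control and -0.52 in the mTert arrays, Myh1 by 0.019 in the control and -1.15 in the mTert arrays, Stmn2 by 0.076 in the control and -0.17 in the mTert arrays, Map2 by -0.18 in the control and 0.33 in the mTert arrays and Syt1 by 0.39 in the control and -0.13 in the mTert arrays. Among the other genes Cd36, a fatty acid transporter, differed by 1.05 in the control and -0.24 in the mTert arrays, Pros1, the anticoagulant protein S, by -0.40 in the control and 0.068 in the mTert arrays and Ndufb8, of respiratory complex I, by 0.70 in the control and -0.08 in the mTert arrays. Of mitotic genes, Tpx2 differed by -0.88 in the control and 0.16 in the mTert arrays and Smc4 by -0.051 in the control and 0.54 in the mTert arrays. B2m differed by -0.034 in the control and 0.23 in the mTert arrays and Ccn1 by 0.18 in the control and -0.086 in the mTert arrays. None of these genes was called by number.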

How the results depend on the processing

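No called probe set changed sign under any alternative tried. For most alternatives this was fixed in advance. Filters, variance settings and the vector term leave the difference itself unchanged. Signals that do not overlap between the numbers keep their order when an array is left out. Against 217 higher and 136 lower probe sets, the fit without the vector as a replicate block gave 131 and 61, the fit without an intensity trend 71 and 5, quantile normalization 85 lower, no filter on calls 80 lower and presence on all 4 arrays 139 higher. With 1 array left out the higher probe sets ranged from 61 to 151 and the lower ones from 18 to 58. These fits have fewer arrays and no vector term, so they also hold part of the difference between the vectors. Under signals as deposited, robust eBayes, presence on at least 1 array and log2(signal + 50), both counts stayed within 1.5 times. Of 233 named genes that were tested, 79 lost their call without the trend, and 43, 63, 41 and 72 without control 1, control 2, mTert 1 and mTert 2. The cause was not tested.

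Genes whose sign depended on the array left out, none of them called on the probe set used, are given by their lowest and highest log2 difference over those fits. The ranges were Prf1 -0.34 to 0.17, Des -0.28 to 0.036, Tnnc1 -0.42 to 0.21, Stmn2 -0.24 to 0.15, Map2 -0.11 to 0.27, Syt1 -0.032 to 0.29, Cebpa -0.01 to 0.59 and Cd36 -0.14 to 0.95. For others they were Sp7 -0.99 to 0.045, Rbp4 -0.47 to 0.058, Kdm6a -0.29 to 0.008, Eif2s3x -0.006 to 0.061, Pros1 -0.43 to 0.098, Junb -0.23 to 0.68, Klf2 -0.024 to 0.53 and Ndufb8 -0.12 to 0.74. The rest were Tpx2 -0.77 to 0.053, Smc4 -0.042 to 0.53, Eln -0.96 to 0.078, Arhgdib -0.21 to 0.012, Ccn1 -0.15 to 0.25 and Vim -0.13 to 0.06.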

Other observations

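Called genes also lay side by side in the genome. Of 257 called genes with a place in the RefSeq gene order, 49 stood in 22 runs with at most 2 protein-coding genes between neighbours. In 15 runs all members went 1 way, and in 7 both directions occurred. Some runs in 1 direction hold copies of 1 ancestral gene: C1qa, C1qb and C1qc, the chains of C1q, Ms4a6b, Ms4a6c and Ms4a6d, a family of membrane proteins of leukocytes, Pf4, Cxcl1 and Cxcl2, a chemokine cluster, and Lyz1 with Lyz2. Others hold genes with no shared family, such as Tgm2 with Lbp on the higher side, and Smoc2 with Thbs2 and Tnmd with Srpx2 on the lower side. The longest run, with 4 genes, was mixed: Paip1 was higher, while 4833420G17Rik, Tmem267 and Hmgcs1 were lower. The other tested probe set of Paip1 did not lie on the higher side. Fhl2 was lower beside the higher Ecrg4, and Tagln lower beside the higher Bace1. How many such runs the gene order alone would give was not tested.

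Some further called genes outside every list were chosen here after their values were seen, and show no theme by themselves. Dpysl3, a protein of growing axons, had 2730 and 2916 on the arrays numbered 1 against 1627 and 1536 on those numbered 2. Akap12, a scaffold of protein kinase A, had 1826 and 1796 against 1108 and 915. F2r, the thrombin receptor, had 5148 and 4659 against 3314 and 3530.1, and Rgs4, which shortens signals of G proteins, had 478 and 527 against 316 and 295. Lgr5, a receptor of R-spondins, had 1555 and 1401 against 1013 and 1005, while its ligand Rspo2 was higher, with 3228 and 3098 against 4161 and 4430.0. Crabp1, which binds retinoic acid, had 1351 and 1723 against 732 and 1126, and Lifr, the receptor of Lif, 1478 and 810.3 against 699 and 611, where the vectors differed as well as the numbers.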
